A study of Mus musculus with 2 samples.

Results

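The miR-10, miR-99 and miR-100 genes form a family of microRNA (miRNA) genes whose mature 5p products are close in sequence. The 5 members, Mir10a, Mir10b, Mir99a, Mir99b and Mir100, were chosen by name, by matching the Ensembl identifiers of the count tables to the GENCODE mouse annotation. All 5 had a row, out of 1973 miRNA genes measured. MicroRNA-seq, which sequences the small RNA fraction of a total RNA sample, was run on the neural tube, the source of brain and spinal cord, of embryos of the mouse strain B6NCrl aged 14.5 days. Both libraries belong to 1 group, for which the labels give no treatment and no altered allele. Replicate 1 came from pup 1 of the first pregnant female and replicate 2 from pup 1 of the second. Each sample is described as a single neural tube, yet its sex is labelled as pooled, and which of these holds was not settled. The values describe levels in this tissue and the gap between the libraries of the 2 litters.

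A miRNA is cut from a hairpin precursor and guides Argonaute proteins to messenger RNAs, mainly through its seed, bases 2 to 8 from the 5′ end. Mir10a and Mir10b lie in Hox gene clusters, and in vertebrate embryos they are known for expression in the hindbrain and spinal cord that follows that of their Hox neighbours. In zebrafish, miR-10 is known to repress hoxb1a and hoxb3a. Mir99a, Mir99b and Mir100 lie outside the Hox clusters, each beside a let-7 gene and a miR-125 gene, an arrangement conserved among animals. The mTOR messenger RNA is a known target of miR-99 and miR-100 in mammalian cells.

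The mature 5p sequences are shown because the seed groups and the single-base differences set which reads can be told apart. They are from RefSeq (GRCm38.p6), written 5′ to 3′ with the seed in capitals:
mmu-miR-10a-5p: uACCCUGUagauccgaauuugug
mmu-miR-10b-5p: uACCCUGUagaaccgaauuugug
mmu-miR-99a-5p: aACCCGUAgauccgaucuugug
mmu-miR-100-5p: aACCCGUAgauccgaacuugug
mmu-miR-99b-5p: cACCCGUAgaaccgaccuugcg

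The 5p products fell into 2 seed groups. Mir10a and Mir10b shared ACCCUGU, and Mir99a, Mir99b and Mir100 shared ACCCGUA. Among 1738 mature mouse sequences in the RefSeq table, 2 carried the first seed and 3 the second, and all of them came from these genes. Positions are counted from 1 at the 5′ end. The miR-10 sequences differed by 1 base, U12A from miR-10a to miR-10b. The sequences of miR-100 and miR-99a also differed by 1 base, A16U from miR-100 to miR-99a, and shared their first 15 bases. Between miR-99a and miR-99b there were 4 substitutions, A1C, U11A, U16C and U21C. The groups were related by the removal of a base: without the base at position 6, miR-10a had 22 bases and differed from miR-100 by U1A and U17C, counted after the removal.

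The counts were made per gene, so a value sums the reads of both arms of a hairpin. The 3p products are shown for that reason, again with bases 2 to 8 in capitals:
mmu-miR-10a-3p: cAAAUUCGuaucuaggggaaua
mmu-miR-10b-3p: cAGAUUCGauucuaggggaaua
mmu-miR-99a-3p: cAAGCUCGuuucuaugggucu
mmu-miR-99b-3p: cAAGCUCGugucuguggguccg
mmu-miR-100-3p: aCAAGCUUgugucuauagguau

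The 3p products did not keep the 5p grouping. The 3p products of Mir99a and Mir99b shared the seed AAGCUCG, while those of Mir10a, Mir10b and Mir100 had seeds that no other mature sequence of the table carried. The 3p products of Mir10a and Mir10b differed by A3G, U9A and A10U. None of the 10 mature sequences was found whole in another miRNA gene of the table. Every 18-base window of each of the 10 was absent from all other listed miRNA sequences. With 1 mismatch allowed, however, all 6 windows of miR-10a-5p matched miR-10b-5p, and all 5 windows of miR-99a-5p matched miR-100-5p. No gene was credited with reads that mapped to several places, which made up 32.4% of reads in replicate 1 and 33.3% in replicate 2. How many mismatches the alignment allowed is not given in the sources used here, so the split within each of these pairs is less certain than their sum.

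Among reads with a single position, the family took most of the counts on miRNA genes in both libraries. The sense-strand counts on miRNA genes came to 3172235 in replicate 1 and 3671915 in replicate 2, and levels are given as counts per 1000000 of them (CPM) or as percent. The 5 genes held 1906111 counts in replicate 1 (60.1%) and 2046990 in replicate 2 (55.7%, exact 95% binomial interval 55.7 to 55.8), a mean of 57.9% ± 3.07 (SD, n = 2). The share was higher in replicate 1. Of all reads in the tables, those at several positions and unmapped ones included, the family made up 30.5% on average. Shares and ranks here therefore describe reads with a single position, and miRNAs with several gene copies are understated in them. All intervals given here cover the counting error of reads only. PCR reads without molecular identifiers are not independent molecules, so the intervals can be too narrow for counts of molecules. In whole tissue, fewer cells of a type and less RNA per cell cannot be told apart. Whether the library preparation captured different miRNAs equally was not tested, so ratios between genes are ratios of reads.

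The tissue label was checked against marker miRNAs. Of 10 measured neuronal markers, 7 had at least 10 counts in both libraries, with a summed share of 1.30% in replicate 1 and 1.15% in replicate 2, while Mir124a-2, Mir124a-3 and Mir9-2, whose families have several near-identical gene copies, did not. All 3 oligodendrocyte-lineage markers were detected, at 0.267% and 0.254% in sum. Markers of other cell types (endothelium, mesenchyme, muscle, blood, epithelium, liver, sensory organs; 26 measured, 19 detected) took 1.24% in replicate 1 and 3.80% in replicate 2. Of these the muscle genes Mir133a-1 and Mir133a-2 had 0 counts in both libraries. They are gene copies of one miRNA, and a product read that fitted both copies would have entered neither count, so these zeros set no limit on its level.

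Mir10b had the most counts of all miRNA genes in both libraries. Mir10b (ENSMUSG00000065500) lies at chr2:74726070-74726137 on the plus strand of GRCm38, the assembly also called mm10, in an intron of both Hoxd3 and Hoxd4, genes for transcription factors that pattern the body axis. It had 753041 counts in replicate 1, or 237385 CPM, and 715556 counts in replicate 2, or 194873 CPM. Its mean of 216129 ± 30061 CPM (SD, n = 2) had the widest relative spread of the family, with an SD of 13.9% of the mean. The other 4 members had SDs between 1.32% and 2.22% of their means. These spreads are of CPM, over total counts, and the gap between the libraries depends on the scaling, as given below.

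Mir10a (ENSMUSG00000065519) ranked next. It lies at chr11:96317165-96317274 on the plus strand, inside no other annotated gene, 992 bases before the start of Hoxb4 and 11043 bases beyond the end of Hoxb5. It had 525821 counts in replicate 1 and 593766 in replicate 2. These made 165757 and 161705 CPM, a mean of 163731 ± 2866 CPM (SD, n = 2). Both values lay below those of Mir10b.

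Mir99a (ENSMUSG00000065530) was the highest of the miR-99/100 genes and the third of all miRNA genes by counts. It lies at chr16:77598936-77599000 on the plus strand, in an intron of its noncoding host gene Mir99ahg and opposite an intron of Gm11146. Its 465917 and 549451 counts gave 146873 CPM in replicate 1 and 149636 CPM in replicate 2, a mean of 148255 ± 1954 CPM (SD, n = 2). By CPM, the values of the 2 libraries lay closest together, relative to their mean, among the 5 genes. With the TMM scaling explained below, Mir100 had the smaller log2 ratio between the libraries, 0.17 against 0.19 for Mir99a.

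Mir100 (ENSMUSG00000093011) lies at chr9:41531425-41531504 on the plus strand, in an intron of the noncoding transcripts 3110039I08Rik and Gm49317, and opposite an exon of the noncoding gene Gm48742. It had 105397 counts (33225 CPM) in replicate 1 and 125477 counts (34172 CPM) in replicate 2, a mean of 33698 ± 670 CPM (SD, n = 2). The gap below Mir99a was the widest between neighbours in the family: Mir99a had 4.42 times the counts of Mir100 in replicate 1 and 4.38 times in replicate 2.

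Mir99b (ENSMUSG00000065396), the lowest member, lies at chr17:17830188-17830257 on the plus strand, in an intron of Spaca6, a gene for a sperm protein. It had 55935 counts (17633 CPM) in replicate 1 and 62740 counts (17086 CPM) in replicate 2, a mean of 17360 ± 386 CPM (SD, n = 2). Mir10b exceeded it 13.5-fold in replicate 1 and 11.4-fold in replicate 2.

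**Figure D1:**
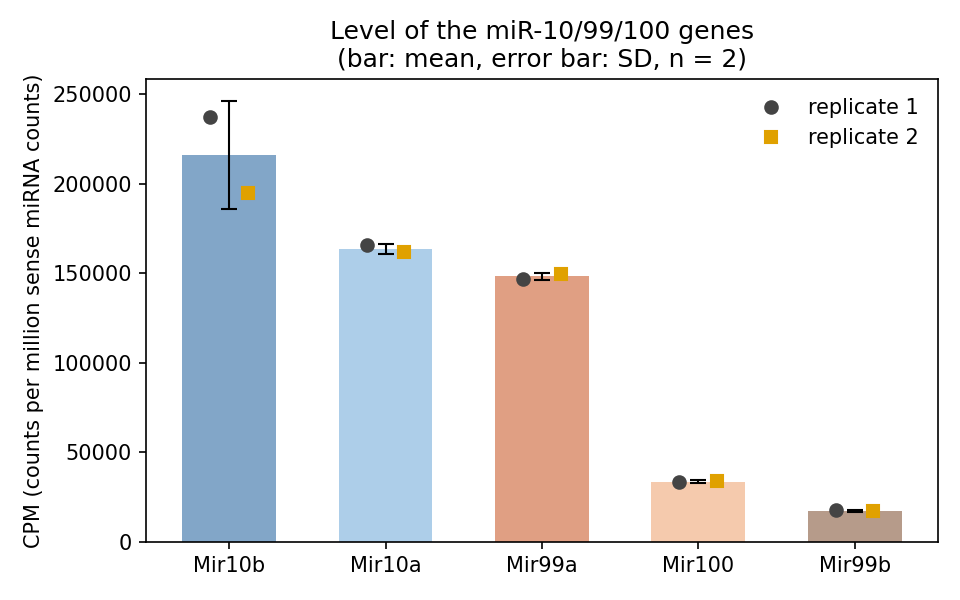
Level of each member in counts per 1000000 sense miRNA counts (CPM, linear axis from 0). Bars are means, error bars SD (n = 2), circles replicate 1 and squares replicate 2. Mir10b, at 237385 and 194873 CPM, is the gene whose libraries lie visibly apart, and the ranges of no 2 neighbours overlap.

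The order Mir10b, Mir10a, Mir99a, Mir100, Mir99b was the same in both libraries. No neighbours in it overlapped: the lower value of Mir10b, 194873 CPM, exceeded the higher value of Mir10a, 165757 CPM. The closest neighbours were Mir10a and Mir99a, where 161705 CPM stood against 149636 CPM, a ratio of 1.13 in replicate 1 and 1.08 in replicate 2. The mature 5p products of Mir10a and Mir10b have 23 bases and those of the other 3 have 22. These lengths are too close to change the order, so the values per base of the 5p product are no check on it. They were 9397 ± 1307 CPM per base for Mir10b, 7119 ± 125 for Mir10a and 6739 ± 88.8 for Mir99a.

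By reads with a single position, the members held ranks 1, 2, 3, 4 and 9 among all miRNA genes in each library. Mirlet7g, of the let-7 family, came directly below Mir100 with 28302 CPM in replicate 1 and 23292 CPM in replicate 2, and these values did not reach those of Mir100. Mir487b, of the imprinted Dlk1-Dio3 locus, came directly above Mir99b by its mean, with 20070 and 15955 CPM, a range that enclosed both values of Mir99b. Mir99b and Mir487b therefore did not differ beyond their spread. Mir30e followed Mir99b with 15175 and 16745 CPM, both below the values of Mir99b.

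**Figure D2:**
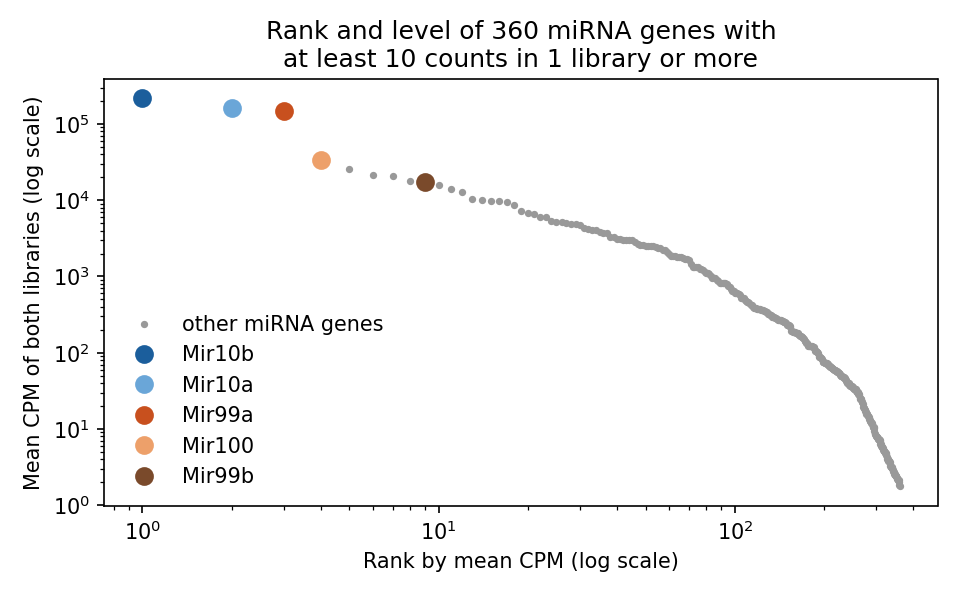
Mean CPM of both libraries against rank (both axes logarithmic) for the 360 miRNA genes that reached 10 counts in at least 1 library. The members, in colour, hold ranks 1 to 4 and 9, and a step separates Mir99a, at 148255 CPM, from Mir100, at 33698 CPM.

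The seed groups contributed unequally. Mir10a and Mir10b together held 40.3% of all miRNA counts in replicate 1 and 35.7% in replicate 2 (mean 38.0% ± 3.29, SD, n = 2). Mir99a, Mir99b and Mir100 together held 19.8% and 20.1% (mean 19.9% ± 0.224). In these shares the difference between the libraries thus lay on the miR-10 side, and mainly in Mir10b. Mir10b held 23.7% in replicate 1 and 19.5% in replicate 2, and Mir10a 16.6% and 16.2%. The ratio of the miR-10 genes to the miR-99/100 genes was 2.04 in replicate 1 (exact 95% interval 2.03 to 2.05) and 1.77 in replicate 2 (1.77 to 1.78).

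Shares within the family depend neither on library scaling nor on other genes. Mir10b made up 39.5% of the family's counts in replicate 1 and 35.0% in replicate 2. The share of each other member was higher in replicate 2, at 29.0% against 27.6% for Mir10a, 26.8% against 24.4% for Mir99a, 6.13% against 5.53% for Mir100 and 3.06% against 2.93% for Mir99b. Between the miR-10 genes, Mir10b exceeded Mir10a 1.43-fold in replicate 1 (exact 95% interval 1.43 to 1.44) and 1.21-fold in replicate 2 (1.20 to 1.21). The mean log2 ratio of Mir10b over Mir10a was 0.39 ± 0.18 (SD, n = 2). Within the miR-99/100 genes the split moved little: Mir99a held 74.3% and 74.5% of their counts, while Mir99b held 8.92% and 8.51%, and Mir100 the rest.

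**Figure D3:**
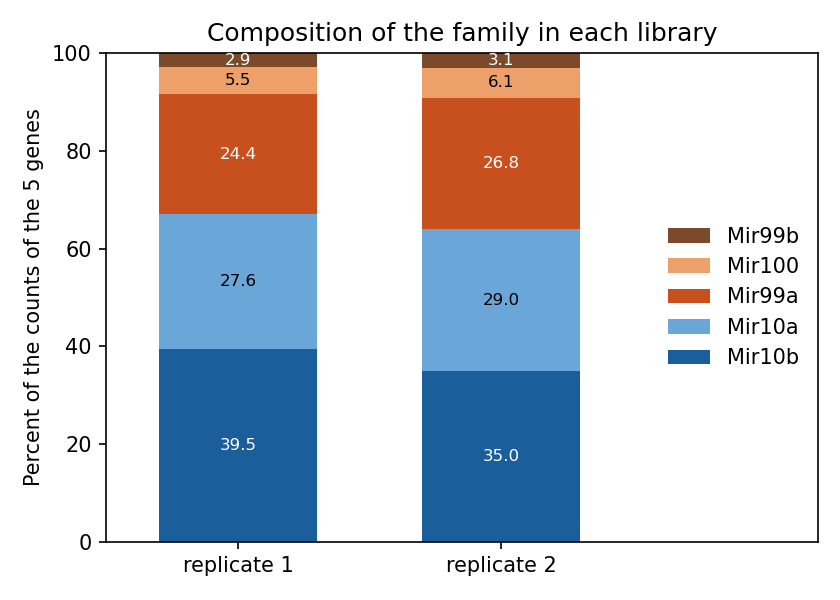
Percent of the summed counts of the 5 genes that each held in replicate 1 and in replicate 2, stacked to 100%. Mir10b takes 39.5% in replicate 1 and 35.0% in replicate 2, and each other segment is wider in replicate 2.

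None of the members lay 2-fold apart between the libraries. Scaling used TMM (trimmed mean of M-values), a factor set by the bulk of the genes, and each log2 ratio sets replicate 1 over replicate 2. As each litter gave 1 library, the ratios compare these libraries and have no replicate check, so no test was made and a 2-fold difference was the rule. Of the 360 genes that reached 10 counts in at least 1 library, 44 (12.2%) met it, 16 higher in replicate 1 (4.44%) and 28 higher in replicate 2 (7.78%), and of the 5 members 0 did. At that background share, 0 of 5 is not a result particular to the members.

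Mir10b had the largest ratio of the family, with 753041 and 715556 counts and a log2 ratio of 0.50 (exact 95% binomial interval 0.49 to 0.50). The other members ranged from 0.17 for Mir100 to 0.26 for Mir99b, with 0.25 for Mir10a and 0.19 for Mir99a. All 5 lay above 0 under TMM, with a median of 0.25, whereas the median of all 360 genes was -0.02. The median absolute log2 ratio was 0.25 for the members, 0.29 for all 360 genes, and 0.24 for the 78 other genes with a mean of at least 1000 CPM.

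Scaling set the sign of some of these ratios. Scaling by total counts moved all log2 ratios by -0.21 and the median of all genes to -0.23. It placed Mir10b at 0.28, Mir99b at 0.045 and Mir10a at 0.036, and turned Mir99a to -0.027 and Mir100 to -0.041. With total counts 53 genes (14.7%) were 2-fold apart, 11 higher in replicate 1 (3.06%) and 42 higher in replicate 2 (11.7%), and again none of the members.

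Some markers of other cell types were higher in replicate 2. The summed share of all these markers, from the 26 measured genes, was 1.24% in replicate 1 and 3.80% in replicate 2, with the largest gap in the sensory genes Mir96, Mir182 and Mir183, at 6690 and 55262 counts in sum. The mesenchymal genes stood at 0.120% and 0.489%, and the endothelial gene Mir126a at 0.844% and 1.73%. The summed blood genes had a log2 ratio of -0.70 under TMM, the epithelial genes one of -0.11 and the skeletal muscle genes one of -0.015. Single genes within the blood and epithelial sums went both ways. Of the blood genes, Mir486 stood at 1.69, against -2.14 for Mir223, -0.39 for Mir144 and -0.24 for Mir451a. Of the epithelial genes, Mir200c stood at 1.25, Mir200b at 0.56 and Mir429 at 0.23, against -0.13 for Mir203 and -0.56 for Mir205. The liver gene Mir122, with 138 and 132 counts, had a log2 ratio of 0.49, on the side of the members. The neuronal genes, at 1.30% and 1.15% in sum, lay on the side of Mir10b. Mir137, with a mean of 9457 CPM and a log2 ratio of 0.25, held most of that sum. Of the other neuronal genes, Mir128-1 (1.18), Mir128-2 (1.13), Mir9-3 (0.39), Mir124a-1 (0.30) and Mir218-1 (0.25) lay above 0. Mir218-2 (-0.013) and Mir124a-2 (-1.16, at 2.40 CPM) lay below 0. The part of these cell types in the ratios of the members was not tested.

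**Figure D4:**
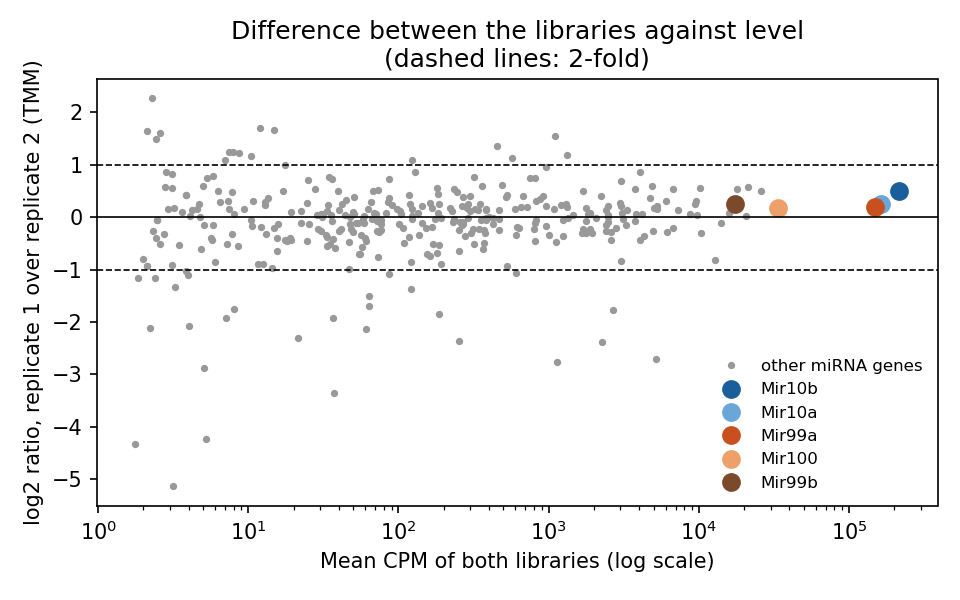
Log2 ratio of replicate 1 over replicate 2 after TMM scaling against mean CPM (logarithmic axis) for 360 miRNA genes, with dashed lines at 2-fold. The members, in colour, lie between 0.17 and 0.50, inside the dashed lines, at the right end of the plot.

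The genes with ratios nearest to that of the summed family, 0.32, were Mirlet7b (0.32), Mir615 (0.30) and Mir135b (0.36). The measure was the absolute difference of log2 ratios over 2 libraries among 78 other genes with a mean of at least 1000 CPM. With so few libraries many genes lie close, and the likeness is a description only.

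Other miRNA genes of the Hox clusters were far lower than Mir10a and Mir10b. Mir196a-1, Mir196a-2 and Mir196b, known for repressing Hoxb8, and Mir615 in an intron of Hoxc5 together held 1.65% of counts in replicate 1 and 1.31% in replicate 2. Mir615 was the highest of them at 9643 ± 420 CPM (SD, n = 2), and Mir10b exceeded it 23.9-fold in replicate 1 and 20.8-fold in replicate 2. Mir196a-1, 51899 bases from Mir10a in the Hoxb cluster, had 70 and 47 counts. Its mature 5p sequence is shared with Mir196a-2, so reads of that product can fit several positions. All 4 had log2 ratios above 0 under TMM, from 0.30 for Mir615 to 1.55 for Mir196a-2, which had 5042 and 2316 counts and was the single gene of these past 2-fold. Mir196a-1 stood at 0.99 under TMM and, with DESeq2 size factors, at 1.01, just past the rule. Scaling by total counts kept all 4 above 0, from 0.09 to 1.33.

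Measured neighbours that lie within 60 kb of a miR-99/100 gene on the same strand had lower counts. Mirlet7c-1, 656 bases beyond Mir99a, had 1190 counts in replicate 1 and 944 in replicate 2, and Mir125b-2, 47272 bases beyond it in the same host gene, had 4308 and 5607. Mir99a exceeded Mir125b-2 108-fold in replicate 1 and 98.0-fold in replicate 2. The let-7 genes are known for the timing of differentiation, and miR-125 is the vertebrate relative of the worm timing gene lin-4.

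At the Mir100 locus, Mirlet7a-2 had 494 and 367 counts and Mir125b-1, 50421 bases beyond Mir100, had 3862 and 4414. Mir100 exceeded Mir125b-1 27.3-fold in replicate 1 and 28.4-fold in replicate 2. The 5p products of Mir125b-1 and Mir125b-2 are identical in sequence, as are those of Mirlet7c-1 and Mirlet7c-2. No gene was credited with reads of these products that fitted several positions. The excess of Mir99a and Mir100 over these partners is therefore not a ratio of their products. For Mirlet7a-2 only a 3p product was listed, so copies of its 5p product were not checked.

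Mir125a, 554 bases beyond Mir99b and in an exon of Spaca6, has mature sequences that no other listed gene carries. The limit set by gene copies therefore does not apply to it. Mir125a had 17403 counts (5486 CPM) in replicate 1 and 15424 counts (4201 CPM) in replicate 2. Mir99b exceeded it 3.21-fold in replicate 1 and 4.07-fold in replicate 2. The log2 ratio between libraries was 0.60 for Mir125a and 0.26 for Mir99b under TMM, and 0.39 and 0.045 with total counts. Of these neighbours, Mir99b was the higher in both libraries and Mir125a had the larger ratio between them.

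**Figure D5:**
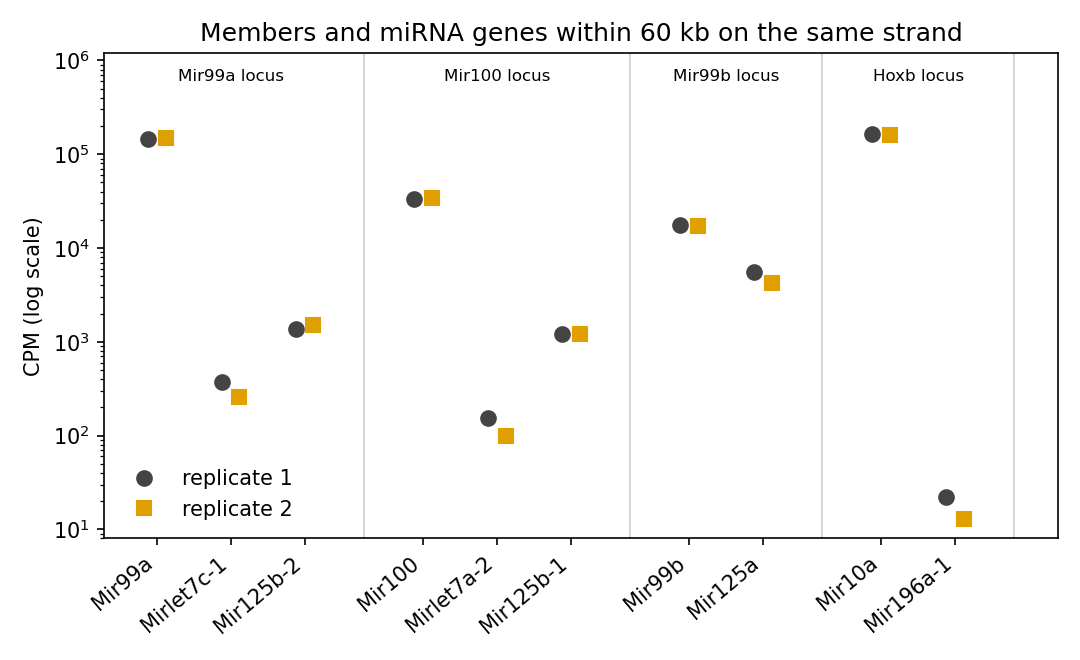
CPM (logarithmic axis) of Mir99a, Mir100, Mir99b and Mir10a and of the measured miRNA genes within 60 kb on the same strand. Circles are replicate 1 and squares replicate 2. Each member stands above its neighbours in both libraries, by 3.21-fold and 4.07-fold at the Mir99b locus and by far more at the loci whose neighbours have gene copies.

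The members were read from the sense strand. Reads on the other strand numbered 1 for Mir10a in replicate 1, 1 for Mir10b in replicate 2, and 0 for Mir99a, Mir99b and Mir100 in both libraries. Over all miRNA genes, 1.26% of counts in replicate 1 and 1.49% in replicate 2 lay on the other strand. These percentages are no background rate for the members. Of the other-strand counts, 9061 of 40538 in replicate 1 and 11067 of 55434 in replicate 2 lay at Gm25927. Another miRNA gene, Mirlet7e, is annotated on the strand of those reads. Mir99b was the member with the fewest reads. With 3 counts as the limit that a count of 0 allows, its other-strand share was at most 0.00536% in replicate 1 and 0.00478% in replicate 2. The upper ends of its exact 95% intervals were 0.00659% in replicate 1 and 0.00588% in replicate 2. Mir99a and Mir100 lie opposite annotated genes, and no read on the strand of those genes was counted at either member.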

How the data were processed

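The authors deposited 1 table of raw read counts per library with no normalization, with 3 columns of counts (either strand, sense, other strand) for 1973 miRNA genes and 4 rows that name no gene. Per the text notes deposited with the libraries, the counts derive from alignments to mm10 and annotation M4; the aligner and its filters are not stated there. The 4 rows (46.6% of reads in replicate 1 and 48.1% in replicate 2) were left out. Sense counts were used, over 5941830 and 7074029 reads in all. Symbols came from GENCODE M21 (GRCm38), where 1894 identifiers matched. CPM was computed over all sense counts. TMM factors came from edgeR 4.0.16 under R 4.3.3 over the 360 genes that reached 10 counts in at least 1 library. Log2 ratios used a prior count of 0.5, and intervals are exact 95% Clopper-Pearson intervals (scipy 1.17.1). Python 3.11.15, numpy 2.4.6, pandas 2.3.3 and matplotlib 3.10.9 were used. Alternatives were total counts, DESeq2 1.42.0 size factors, other denominators, filters and prior counts. The procedure was tested on simulated data with counting error alone and no variation between litters. No change was planted among the 10 genes with the most counts, which include the members. Ratios at the level of the members were therefore not tested.

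Both samples form 1 group and come from different pregnant females. Named genes were the members, miRNA genes within 60 kb, other Hox miRNA genes, neighbours in rank, genes sharing a seed, and the 3 genes nearest in ratio. The members and lists were chosen with earlier results of these data known.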

Additional observations from a re-analysis of the deposited data

Results flagged for a closer look

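Reads were found on the strand opposite Gm25927, a miRNA gene annotated 85 bases beyond Mir99b on the minus strand, in the other-strand column that the levels above do not use. Gm25927 had 9061 other-strand counts in replicate 1 and 11067 in replicate 2, against 0 sense counts in each, far above the limit of 3 counts that a count of 0 allows. Mirlet7e is annotated on that opposite strand, 94 bases beyond Mir99b. No measured gene matched it by identifier, so it has no sense count here. Set over the sense totals these reads would amount to 2856 CPM in the first library and 3014 CPM in the second. Mir99b had 6.17 times as many counts in replicate 1 and 5.67 times in replicate 2.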

How the results depend on the processing

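Of 100 values computed under alternatives, 67 were classed as the same, 33 moved and 0 reversed a called value. For levels, shares and log2 ratios, the same means within the SD or interval of the reported value. Numbers of genes 2-fold apart have no such interval, and those classed as the same include shifts. With total counts, 53 genes stood against 44, with 11 against 16 higher in replicate 1 and 42 against 28 higher in replicate 2. With all reads as the denominator the family's share was 30.5%, and the levels were 113944 CPM for Mir10b, 86215 for Mir10a, 78042 for Mir99a, 17738 for Mir100 and 9141 for Mir99b. With Mir10b left out of the denominator they were 209099 CPM for Mir10a, 189223 for Mir99a, 43005 for Mir100 and 22172 for Mir99b. The either-strand column gave 146215 CPM for Mir99a and a log2 ratio of 0.50 for Mir10b. Log2 ratios for Mir10b, Mir10a, Mir99a, Mir100 and Mir99b were 0.28, 0.036, -0.027, -0.041 and 0.045 with total counts. With DESeq2 size factors they were 0.51, 0.26, 0.20, 0.19 and 0.27, and with total counts without the 5 members 0.43, 0.18, 0.12, 0.11 and 0.19. The count of 0 members past 2-fold held under every scaling and with the either-strand column. Genes 2-fold apart numbered 229 with no filter (94 higher in replicate 1, 135 in replicate 2) and 20 with at least 100 counts in 1 library (5 and 15), as the filter changes how many genes of few counts enter. Leaving out a library leaves the value of the other, which is printed for each level and share. With 2 libraries that value always lies within the SD around their mean, so these values were bound to count among the 67.

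No paired analysis was possible because both libraries belong to 1 group. Depth does not limit the members, each with 55935 counts or more per library, whereas 1 library per dam limits every comparison between libraries.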
